A study of Mus musculus with 6 samples.

Results

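The genes described here are 10 transcription factors that steer blood cells towards the myeloid and lymphoid lineages: Spi1, Cebpa, Cebpb, Cebpe, Gfi1, Ikzf1, Ikzf3, Tcf3, Bach2 and Id2. They were chosen by name, and both they and the gene lists below were chosen with earlier results of these data known. Every probe set annotated to 1 of them alone was used. This gave 19 probe sets for 9 of the genes, out of 45101 probe sets and 18193 named genes on the array. Cebpe had no such probe set and was not analysed here. The RNA came from early erythroid progenitors, isolated in a flow sorter from the fetal livers of C57BL/6 mouse embryos at day 13.5 of gestation. The Eklf knockout group held 3 livers of the genotype Eklf -/-, and the control group held 3 wild-type livers, with 1 Affymetrix array for each liver.

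Eklf, symbol Klf1, is a zinc finger activator of erythroid genes. The knockout is present in every cell of the embryo, not in red cells alone, and per the labels it was built from clones of a strain 129 library in mice of C57BL/6 blastocyst origin. Klf1 lies on chromosome 8, and none of the 9 measured genes lies on that chromosome. The sort used 7AAD, CD71 and Ter119, and its gates were not described. The question of the comparison is which transcripts of these progenitors differ when Klf1 is missing.

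Spi1 encodes PU.1, an ETS-family factor needed for macrophages, neutrophils and B cells, and a known antagonist of the erythroid factor Gata1. The C/EBP proteins are leucine zipper factors of granulocyte and monocyte genes, and Gfi1 is a zinc finger repressor that favours neutrophils over monocytes. Ikzf1 (Ikaros) and Ikzf3 (Aiolos) are zinc finger factors of lymphoid development, Tcf3 encodes the E proteins E12 and E47 that open the B cell programme, and Bach2 is a repressor that acts in B cell precursors and mature B cells. Id2 has no DNA-binding domain of its own and holds E proteins in inactive dimers. In red cell precursors several of these genes are switched off as maturation proceeds.

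All 9 measured genes were lower on the knockout-labelled arrays at their brightest probe set. Gfi1 was 6.14-fold lower, Bach2 6.50-fold, Ikzf3 4.94-fold, Spi1 3.67-fold, Id2 3.46-fold, Cebpb 3.21-fold, Ikzf1 2.56-fold, Cebpa 2.50-fold and Tcf3 2.09-fold. Of the 19 probe sets, 18 passed the filter on dim signals and were tested, and 11 of these fell, 1 rose and 6 did not pass the test (limma, adjusted p under 0.05). Over all 27023 probe sets tested, 15.7% fell and 28.1% rose. The median log2 difference, knockout minus wild type, was -1.26 over the 18 tested member probe sets and 0.32 over all probe sets tested. The dimmer probe sets of Cebpb, Ikzf1, Ikzf3, Tcf3, Bach2 and Id2 did not all move with the brightest one, and each is described below.

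The stretches upstream of 3 of these genes are shown because the genes moved together and because Klf1 is known to bind CACCC-type elements. Each runs 5′ to 3′ over the 250 bases before the annotated transcription start (RefSeq, GRCm38.p6), and the capitals mark matches to CCNCNCCC on either strand. For Gfi1, which has more than 1 annotated start, the most upstream was used, and none of the 3 stretches overlaps the annotated gene.
Gfi1, chr5:107725806-107726055, minus strand: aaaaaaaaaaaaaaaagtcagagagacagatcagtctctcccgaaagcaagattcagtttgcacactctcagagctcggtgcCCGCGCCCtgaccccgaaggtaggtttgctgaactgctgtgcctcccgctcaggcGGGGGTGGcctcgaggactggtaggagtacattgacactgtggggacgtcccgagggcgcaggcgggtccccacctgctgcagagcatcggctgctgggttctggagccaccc
Cebpa, chr7:35119043-35119292, plus strand: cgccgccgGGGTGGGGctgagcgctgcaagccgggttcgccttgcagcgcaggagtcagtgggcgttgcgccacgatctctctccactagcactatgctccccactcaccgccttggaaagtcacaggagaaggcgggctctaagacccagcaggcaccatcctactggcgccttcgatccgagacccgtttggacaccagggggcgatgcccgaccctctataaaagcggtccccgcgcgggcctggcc
Id2, chr12:25096093-25096342, minus strand: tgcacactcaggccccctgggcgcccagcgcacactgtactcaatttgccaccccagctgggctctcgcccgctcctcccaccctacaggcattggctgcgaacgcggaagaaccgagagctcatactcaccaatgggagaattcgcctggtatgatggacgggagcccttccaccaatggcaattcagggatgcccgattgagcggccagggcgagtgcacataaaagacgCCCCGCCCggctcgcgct
Windows were listed for 7 of the members (9 windows), and Spi1 and Ikzf3 had none. The only window of Bach2 (chr4:32417185-32417434) lies at an annotated start deep inside the gene's span of chr4:32238413-32586109, so it is not shown, and those of Tcf3 and Ikzf1 and the second of Gfi1 also fall within the gene's span, at starts short of its outer end. A CCNCNCCC match was found in 7 of the 9 windows, against 45.9% of the 32851 windows of the same length in the table. The stretches shown held 2 matches in Gfi1, 1 in Cebpa and 1 in Id2. The window of Cebpb (chr2:167688665-167688914) also lies outside the annotated gene and held 6 matches, but it is not shown. The letters AGATAA, read by GATA factors, and GAGGAA, read by PU.1, were in 0 of the 9 windows, against 10.0% and 23.3% of all windows. The E-box CANNTG, the site of E proteins, was in 4 of the 9 windows and in 66.2% of all. A C/EBP-type match, TTGCNNAA, was in 1 of the 9 (Gfi1) and in 9.6% of all. Every motif was searched on both strands. These matches describe letters only, and GC-rich windows such as the 82.0% GC window of Ikzf1 hold the C-rich motif more easily.

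Each array was scaled by the authors to 1 trimmed mean of 500, and the median signal was 204 to 218 on the knockout-labelled arrays and 97.7 to 140 on the wild-type arrays. The 3 arrays of a group limit the precision, and the labels call the RNA samples independent. Klf1, at its only probe set, gave 3505, 1391 and 2545 on the knockout-labelled arrays and 2508, 2706 and 4030 on the wild-type arrays, so the groups overlapped (exact two-sided permutation p = 0.5, where 0.1 is the smallest that 3 against 3 arrays allow). Whether this probe set falls inside the deletion is unknown here, so the groups are named by their labels. Among 11 erythroid markers that were tested 10 rose (90.9%, against 27.9% of all genes tested), Alas2 and Gata1 included, and 0 fell (limma, 0 also without adjustment). Their summed signal was 89966 to 120672 on the knockout-labelled arrays and 26584 to 30215 on the wild-type arrays. As deposited, neither Klf1 nor any of these markers was called lower, although Klf1 activates erythroid genes, and the reason was not tested. The sorted cells are a mixture, and fewer cells of a type and less RNA per cell cannot be told apart in such samples.

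**Figure D1:**
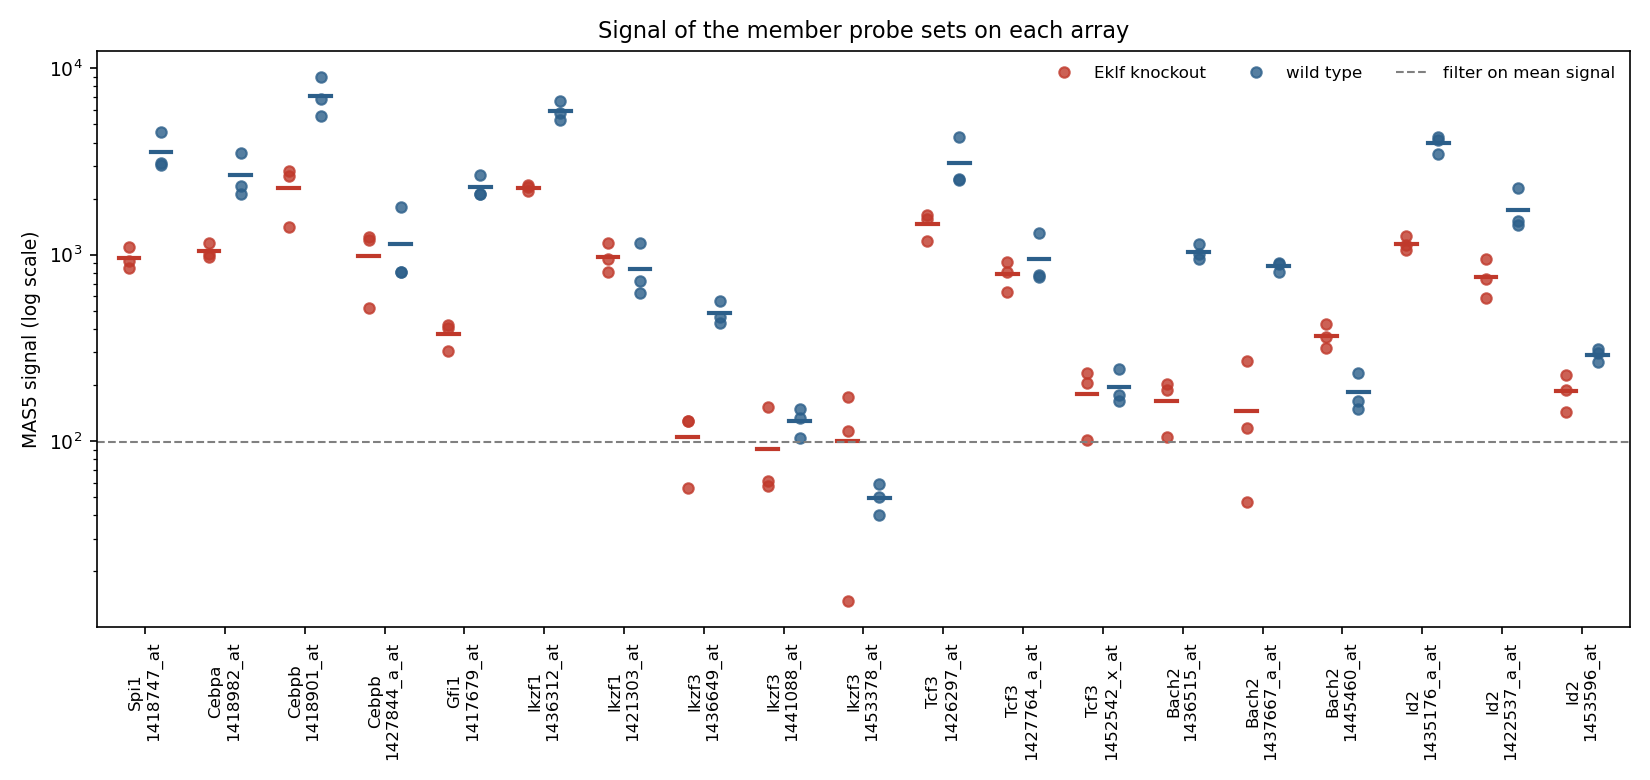
MAS5 signal (log axis) of the 19 member probe sets on each of the 6 arrays, with knockout-labelled arrays in red and wild-type arrays in blue; points are arrays, short bars are group means, and the dashed line is the filter at 98.6, applied to the mean over all arrays. The brightest probe set of each gene separates the groups with the knockout-labelled arrays below, while Bach2 1445460_at separates them the other way.

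Spi1 (chr2:91082374-91115759, GRCm38.p6 as for all gene positions here) had 1 probe set, 1418747_at. Its signal was 922, 849 and 1100.1 on the knockout-labelled arrays, against 3105, 3021 and 4542 on the wild-type arrays. Every knockout-labelled array was below every wild-type array, with means of 957 ± 129 and 3556 ± 855 (SD, n = 3 each). The log2 difference was -1.88 ± 0.20 (SE), with a limma adjusted p of 0.000202.

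Cebpa (chr7:35119293-35121928), the C/EBP factor that starts granulocyte commitment, also had 1 probe set, 1418982_at. It read 1151, 1011 and 970.0 on the knockout-labelled arrays and 2350.4, 2129 and 3516 on the wild-type arrays. The groups did not overlap, and the 3 knockout-labelled values lay within 1 narrow band (1044 ± 95.2, SD, n = 3). The log2 difference was -1.32 ± 0.21 (SE, limma adjusted p = 0.00157).

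Cebpb (chr2:167688915-167690432), which acts in monocytes and in granulocyte production under stress, was measured by 2 probe sets. The brighter, 1418901_at, gave 1403, 2635 and 2811 on the knockout-labelled arrays and 6835, 5576 and 8989 on the wild-type arrays. These values did not overlap, and the log2 difference was -1.68 ± 0.28 (SE, limma adjusted p = 0.00205). Knockout-labelled array 1 was the lowest on both Cebpb probe sets. The other, 1427844_a_at, gave 519.9, 1199 and 1241 against 812, 805 and 1794 on the wild-type arrays. Here the groups overlapped and the difference of -0.20 did not pass (95% CI -1.11 to 0.71, limma adjusted p = 0.704), an interval that does not reach the -1.68 of the brighter probe set.

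Gfi1 (chr5:107716655-107725805) showed the clearest separation of the 9 genes by adjusted p. On probe set 1417679_at, its only one, it stood at 305, 420.1 and 403 on the knockout-labelled arrays and at 2116, 2114 and 2676 on the wild-type arrays. The highest knockout-labelled value was far below the lowest wild-type one, and the log2 difference was -2.62 ± 0.20 (SE, limma adjusted p = 3.82e-05).

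Ikzf1 (chr11:11684962-11772930) had 2 probe sets that did not move together. The brighter, 1436312_at, gave 2193, 2303 and 2372 on the knockout-labelled arrays, against 5271, 5745 and 6638 on the wild-type arrays. The spread within each group was small beside the gap between them, and the log2 difference was -1.36 ± 0.15 (SE, limma adjusted p = 0.00023). The dimmer, 1421303_at, gave 943, 808 and 1150.5 on the knockout-labelled arrays and 625, 726 and 1156 on the wild-type arrays. Those ranges overlapped and the difference was 0.25 (95% CI -0.34 to 0.83, limma adjusted p = 0.453). The median shift of all probe sets was of similar size, 0.32.

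Ikzf3 (chr11:98464610-98546031) lies on the same chromosome as Ikzf1, and its signal was dim except on the wild-type arrays at its brightest probe set. Its brightest probe set, 1436649_at, gave 129, 129 and 56.4 on the knockout-labelled arrays and 466, 431 and 562 on the wild-type arrays. The groups were apart, and the log2 difference was -2.30 ± 0.38 (SE, limma adjusted p = 0.00183). The knockout-labelled mean on the log2 scale, 6.61, was just under the filter of 6.62, so this probe set was tested because of its wild-type signal and its fold rests on a dim value. The remaining Ikzf3 probe sets were near or below the filter in both groups. On 1441088_at the signals were 153, 57.4 and 61.2 against 104, 148 and 133 on the wild-type arrays (difference -0.64, 95% CI -1.74 to 0.45, limma adjusted p = 0.3). On 1453378_at, under the filter and not tested, they were 173, 114 and 13.9 against 58.7, 50.1 and 40.4. With the mean of all 3 probe sets the Ikzf3 difference was -0.85 and did not pass (limma adjusted p = 0.201).

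Tcf3 (chr10:80409541-80433976) had the smallest fold of the brightest probe sets. On 1426297_at it read 1630, 1188 and 1551 on the knockout-labelled arrays, against 2558, 2516 and 4278 on the wild-type arrays. The groups did not overlap, and the log2 difference was -1.07 ± 0.24 (SE, limma adjusted p = 0.00735). The probe set 1427764_a_at gave 807, 916 and 628 against 761, 781 and 1302 on the wild-type arrays (difference -0.25, 95% CI -0.82 to 0.33, limma adjusted p = 0.451). The dim 1452542_x_at, whose suffix marks probes that can match other sequences, gave 205, 101 and 231 against 164, 178 and 245 (difference -0.19, 95% CI -1.08 to 0.70, limma adjusted p = 0.706). Both overlapped between the groups. The mean of the 3 probe sets did not pass (-0.50, limma adjusted p = 0.105).

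Bach2 (chr4:32238413-32586109) had 3 probe sets, of which 2 fell and 1 rose. The brightest, 1436515_at, gave 187, 105 and 202 on the knockout-labelled arrays and 949, 1014 and 1138 on the wild-type arrays. The probe set 1437667_a_at gave 118, 47.3 and 269.9 against 900.2, 810.2 and 892 on the wild-type arrays. In both the groups were well apart, with log2 differences of -2.70 ± 0.29 (SE, limma adjusted p = 0.00019) and -2.92 ± 0.53 (SE, limma adjusted p = 0.00294). The third, 1445460_at, went the other way, with 423, 315 and 362 on the knockout-labelled arrays and 165, 233 and 149 on the wild-type arrays. Its groups did not overlap either, and the log2 difference was 1.02 ± 0.29 (SE, limma adjusted p = 0.0199). That rise lost its call when each array was rescaled (limma adjusted p 0.241 to 0.592 over quantile normalization, cyclic loess and median centring) and when knockout-labelled array 1 (0.0541), knockout-labelled array 3 (0.0525) or wild-type array 1 (0.0635) was left out. Which part of the Bach2 locus each probe set covers is not given in the sources used here.

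Id2 (chr12:25093799-25096092), the inhibitor among these factors, fell beside the E protein gene it opposes. On 1435176_a_at the signal was 1054, 1254 and 1129 on the knockout-labelled arrays, against 4134, 3485 and 4301 on the wild-type arrays. On 1422537_a_at it was 585, 945 and 737 against 1509, 1439 and 2289. Neither probe set overlapped between the groups, and the log2 differences were -1.79 ± 0.16 (SE, limma adjusted p = 7.36e-05) and -1.20 ± 0.25 (SE, limma adjusted p = 0.00513). The dim 1453596_at gave 143, 188 and 227 against 265, 310.4 and 297, also without overlap, but its difference of -0.67 did not pass (95% CI -1.33 to -0.01, limma adjusted p = 0.088).

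**Figure D2:**
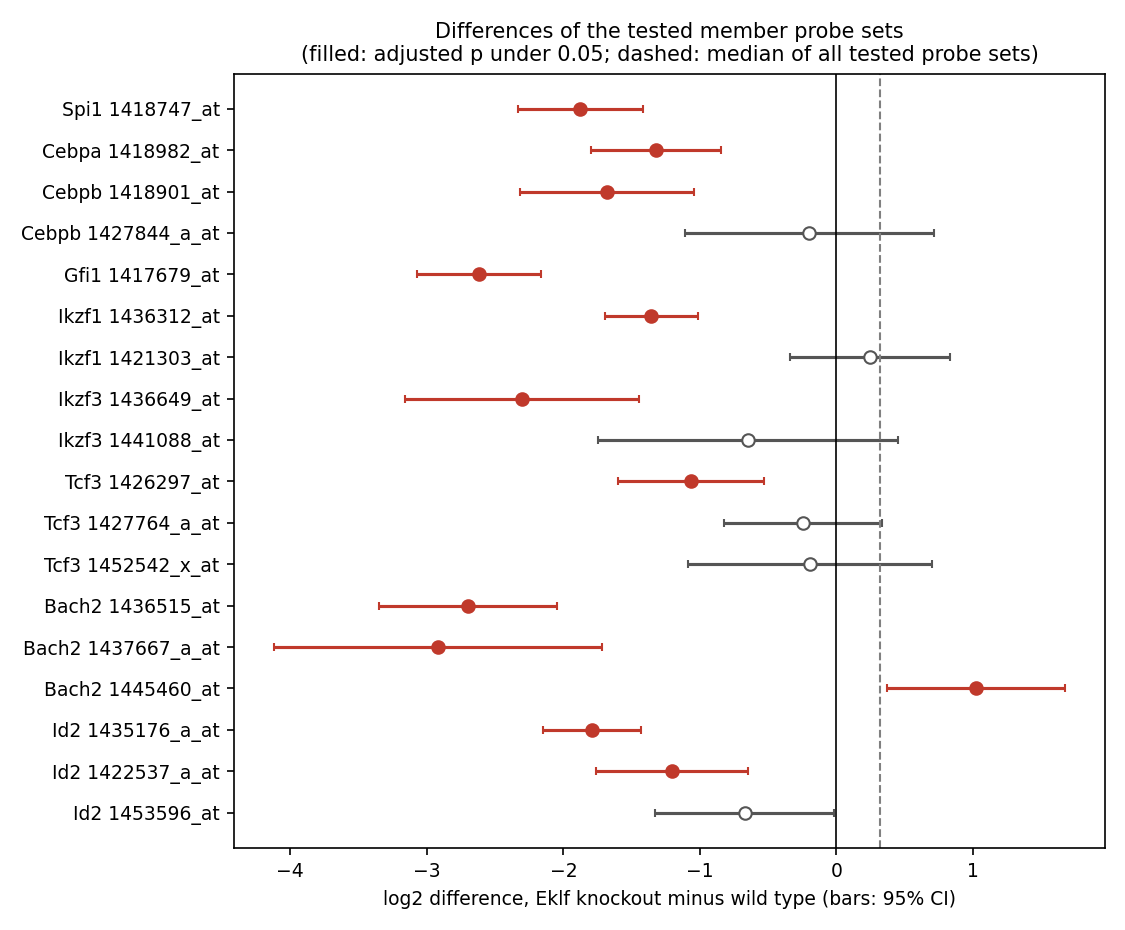
Log2 difference, Eklf knockout minus wild type, of the 18 tested member probe sets with 95% confidence intervals; filled points passed an adjusted p of 0.05, and the dashed line is the median of all probe sets tested, 0.32. The brightest probe set of each gene lies left of 0, Bach2 1445460_at is the 1 called point to the right, and Cebpb, Ikzf1, Ikzf3, Tcf3 and Id2 each have an open point that is nearer to 0.

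Across the 19 probe sets the knockout-labelled arrays lay wholly below the wild-type arrays for 12, wholly above for 1, and overlapped for 6. Among all probe sets tested 20.1% lay wholly below and 37.5% wholly above. Counted by gene at the brightest probe set, 9 of 9 were lower, where 20.8% of all 12799 genes tested were lower and 27.9% higher. Brightness matters to this reading: 6 of the 9 (Cebpa, Cebpb, Id2, Ikzf1, Spi1 and Tcf3) were among the brightest 3200 genes, of which 35.3% were lower. Gfi1 was among the next 3199, of which 27.9% were lower, Bach2 among the 3200 below those, of which 14.2% were, and Ikzf3 among the dimmest 3200, of which 5.72% were. Ikzf3 had a knockout-labelled mean on the log2 scale of 6.61, under the filter of 6.62. It was tested because of its wild-type signal, so it could only be called lower. As the mean of all its probe sets, a gene was called lower in 7 of 9 cases, the exceptions being Ikzf3 and Tcf3.

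Closest relatives of these factors moved in both directions. Of 14 tested relatives 3 fell and 3 rose, with a median log2 difference of -0.42, against 0.14 over all genes tested. Those shares, 21.4% lower and 21.4% higher, are near the 20.8% and 27.9% over all genes tested. Without wild-type array 3 the number that fell was 7. Spib, the lymphoid relative of PU.1, fell to 175, 229 and 145 on the knockout-labelled arrays, against 1293, 1251 and 2554 on the wild-type arrays (log2 difference -3.16 ± 0.31, SE, limma adjusted p = 6.71e-05). Spic, the relative that red pulp and other iron-recycling macrophages need, rose to 273, 315 and 495 on the knockout-labelled arrays, against 47.9, 40.4 and 15.8, which is below the filter, on the wild-type arrays (3.48 ± 0.51, SE, limma adjusted p = 0.000686). It was tested because of its knockout-labelled signal, so the size is not fixed. Each of the 3 knockout-labelled arrays was therefore below the wild-type range for Spi1 and Spib and above it for Spic.

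Cebpd, a C/EBP factor of maturing neutrophils, fell with Cebpa and Cebpb, at 685, 872 and 1041 on the knockout-labelled arrays and 3677, 3192 and 4925 on the wild-type arrays (limma adjusted p = 7.66e-05). Cebpg, a short C/EBP protein without an activation domain, did not pass (0.12, limma adjusted p = 0.722) and was -0.69 (0.0341) after median centring and 0.79, without passing, as the mean of its probe sets. Ddit3, a stress-induced C/EBP relative, gave 257, 3397 and 2513 against 205, 366 and 389 on the wild-type arrays, so knockout-labelled array 1 lay within the wild-type range. It did not pass (2.08 ± 0.81, SE, limma adjusted p = 0.0582), and without knockout-labelled array 1 it did (3.25, limma adjusted p = 0.000255), as it did with array weights (2.72, 0.00312) and, barely, with an offset of 64 (1.93, 0.0485).

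Gfi1b, the erythroid and megakaryocytic paralogue of Gfi1, rose where Gfi1 fell. Its signal was 2867, 2700.1 and 3274 on the knockout-labelled arrays and 804, 714 and 1035 on the wild-type arrays, which is 1.80 ± 0.18 higher on the log2 scale (SE, limma adjusted p = 8.46e-05). Both paralogues separated the groups without overlap, in opposite directions. In the Ikaros family, Ikzf4 (Eos) rose at a low level, with means of 198 ± 70.2 and 76.1 ± 18.6 (SD, n = 3 each, limma adjusted p = 0.0212), a call lost with quantile normalization (0.348), with cyclic loess (0.376), with median centring (0.29) and without knockout-labelled array 3 (0.0749), wild-type array 1 (0.0704) or wild-type array 3 (0.0552). The wild-type signal of Ikzf4 was under the filter, so it was tested because of its knockout-labelled signal. Ikzf2 (-0.59, limma adjusted p = 0.219) and Ikzf5 (0.27, 0.323) did not pass. Wild-type array 3 stood apart for Ikzf2, at 445 against 1231 and 1311 on the other wild-type arrays, and without it Ikzf2 passed (-1.10, limma adjusted p = 0.0025), as it did with array weights (-1.02, 0.00668), whereas the mean of its probe sets was 0.48 and did not pass.

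Among partners of Tcf3, the E protein genes Tcf12 (-0.50, limma adjusted p = 0.0778) and Tcf4 (-0.42, 0.476) did not pass. Without wild-type array 3, which read 355 for Tcf4 against 1369 and 1403 on the other wild-type arrays, Tcf4 passed (-1.07, limma adjusted p = 0.00157) and so did Tcf12 (-0.63, 0.0392). Both also passed with array weights (-0.97, limma adjusted p = 0.0174 for Tcf4 and -0.68, 0.00732 for Tcf12), and Tcf12 without knockout-labelled array 1 (-0.64, 0.0453). Tcf4 was 0.50 with quantile normalization and Tcf12 was 0.39 as the mean of its probe sets, and neither value passed. Of the Id genes, Id3 fell by 0.73 (limma adjusted p = 0.0106), Id1 did not pass (-0.66, 0.0576), and Id4 was under the filter at means of 249 and 57.6. Bach1, the haem-sensing paralogue of Bach2, stood at the threshold (-0.43, limma adjusted p = 0.0503), and was 0.01 as the mean of its probe sets. It passed in 5 of 17 alternatives. These were without wild-type array 3 (-0.53, limma adjusted p = 0.0171), with array weights (-0.54, 0.00648) and with median centring (-1.24, 0.000663). The others were, barely, the offsets of 16 (0.0499) and 64 (0.0495). Tcfl5 was under the filter too, and Cebpz was not analysed here.

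Other myeloid factors were lower in 8 of 20 tested cases and higher in 2, or 40% and 10%, against 20.8% and 27.9% over all genes tested. Irf8, the interferon regulatory factor of monocytes and dendritic cells that works with PU.1, fell by 2.50, to 616 ± 83.7 on the knockout-labelled arrays, against 3494 ± 474 on the wild-type arrays (SD, n = 3 each, limma adjusted p = 1.47e-05). Klf4, a monocyte factor, fell by 3.56 (-2.94 as the mean of its probe sets), Tfec, a macrophage relative of Mitf, fell by 2.22, and Myb, a factor of immature blood cells, fell by 2.05. The 2 that rose, named after their values were seen, were Maf (1.68), a macrophage factor, and Atf3 (2.88), a stress response factor. The wild-type mean of Atf3 on the log2 scale, 6.27, was under the filter of 6.62, so it was tested because of its knockout-labelled signal and the size is not fixed. Its groups overlapped, and it did not pass when either of knockout-labelled arrays 2 and 3 or either of wild-type arrays 1 and 2 was left out (limma adjusted p 0.0624 to 0.0967), nor with quantile normalization (0.0737) or cyclic loess (0.0921).

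Lymphoid factors outside the 10 were lower in 17 of 26 tested cases and higher in 3. Those shares are 65.4% and 11.5%, where all genes tested gave 20.8% and 27.9%. Pou2af1, a B cell coactivator, was 34.0-fold lower, at 127, 111 and 71.1 on the knockout-labelled arrays and 2886, 3042 and 4493 on the wild-type arrays (limma adjusted p = 4.22e-06). Its knockout-labelled mean on the log2 scale, 6.65, was just above the filter of 6.62, so the size of the fold is not fixed. Erg fell by 2.47 and Ets1 by 2.30, both ETS-family factors of stem and lymphoid cells, and as the mean of its probe sets each still passed, at -1.56 for Erg and -0.78 for Ets1. Sox4, needed for B cell precursors, fell by 2.50 at its brightest probe set, while the mean of its probe sets did not pass (-0.57, limma adjusted p = 0.0809). The 3 that rose, Rora, Prdm1 and Bcl11b, were likewise named after their values were seen. Of these Prdm1, a plasma cell factor that Bach2 represses, rose to 274 ± 40.8, against 130 ± 19.1 on the wild-type arrays (SD, n = 3 each, limma adjusted p = 0.0131). Its call was lost with quantile normalization (limma adjusted p = 0.374), cyclic loess (0.39) and median centring (0.517) and without wild-type array 1 (0.0521). That of Bcl11b was lost in the same 3 scalings (limma adjusted p 0.258 to 0.313) and without knockout-labelled array 1 (0.0618), knockout-labelled array 2 (0.0700) or wild-type array 3 (0.0569), and its wild-type mean on the log2 scale, 6.28, was under the filter, so that it was tested because of its knockout-labelled signal.

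Genes known as targets of these factors were counted next. Of 26 tested Spi1 targets 21 fell and 3 rose (median log2 difference -1.82). That is 80.8% lower and 11.5% higher, against 20.8% and 27.9% over all genes tested. Cybb, the large subunit of the phagocyte oxidase, fell by 2.75, Itgb2, the beta chain of the leukocyte integrins, fell by 2.57, Csf2ra, a chain of the GM-CSF receptor, fell by 2.48, and the leukocyte tetraspanin Cd53 fell by 2.37 (limma adjusted p 1.07e-05 to 1.91e-05). The 3 that rose, named after their values were seen, were Adgre1 (0.93), which encodes the macrophage antigen F4/80, Plek (0.92), which platelets also hold, and Cd14 (1.29). Median centring took the call from all 3 (limma adjusted p 0.394 to 0.744), and Cd14 lost it without knockout-labelled array 2 or 3 or wild-type array 1 or 2 (limma adjusted p 0.0923 to 0.116). Cd14 also lost its call with quantile normalization (0.0627), with cyclic loess (0.0972) and without the variance trend (0.0606), so that 9 of its 17 alternatives called it. Macrophage markers as a list moved the other way from Spi1: 8 of 11 tested rose (72.7%) and 2, Csf1r and Lyz2, fell (18.2%). Marco, C1qc and Vsig4 had wild-type means on the log2 scale of 3.19, 4.63 and 6.55, under the filter of 6.62. They were tested because of their knockout-labelled signal, so they could only be called higher. The summed signal of the 15 macrophage markers was 21435 to 28867 on the knockout-labelled arrays and 29168 to 33874 on the wild-type arrays, and 4 of them are in the Spi1 target list as well.

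Of 22 tested granule and neutrophil genes controlled by C/EBP factors or Gfi1, 19 fell and 0 rose, with a median of -1.97. By limma, 0 of the 22 were higher at an unadjusted p under 0.05. The share lower was 86.4%, against 20.8% over all genes tested, of which 27.9% were higher. Itgb2l, an integrin chain of maturing neutrophils, stood at 302, 314 and 178 on the knockout-labelled arrays, against 4370.2, 4871 and 6931 on the wild-type arrays, 20.6-fold lower. That is its brightest probe set, and the mean of its probe sets fell by 1.15 on the log2 scale. Mmp8, a neutrophil collagenase, was 12.5-fold lower, Cd177 10.9-fold and Pglyrp1, a granule peptidoglycan receptor, 9.92-fold (limma adjusted p 6.99e-06 to 2.57e-05). The 3 genes that did not pass, S100a9 (0.22), S100a8 (0.10) and Mpo (0.02), turned downward with quantile normalization and passed there (-0.60, -0.76 and -0.70, limma adjusted p 0.000111 to 0.00318), and S100a9 rose without knockout-labelled array 1 (0.57, limma adjusted p = 0.0339). In each of these 3 the knockout-labelled arrays spread more widely than the wild-type arrays, for Mpo 25166 ± 6623 and 24249 ± 1449 (SD, n = 3 each). All 11 neutrophil markers are in this list, and their summed signal was 102097 to 214107 on the knockout-labelled arrays and 210300 to 244687 on the wild-type arrays.

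Lymphoid target genes of Ikaros and the E proteins were lower in 13 of 18 tested cases and higher in 2 (median -2.11). The shares, 72.2% lower and 11.1% higher, compare with 20.8% and 27.9% over all genes tested. Cd79b, a chain of the B cell receptor, was 21.0-fold lower and Igll1, part of the surrogate light chain, 31.6-fold lower. Averaged over its probe sets, Igll1 was -2.43 on the log2 scale, against -4.98 at the brightest. Vpreb1, the other part of that chain, gave 21.7, 99.9 and 35.1 on the knockout-labelled arrays and 7479, 6396 and 11889 on the wild-type arrays, where the knockout-labelled mean of 52.2 is below the filter, so the size of the fold is not fixed. Ighm was 24.3-fold lower at its brightest probe set, but the mean of its probe sets was -0.03 (limma adjusted p = 0.943). The 2 that rose, Zap70 (2.15), a kinase of T cells, and Dntt (1.99), were named after their values were seen, and Zap70 did not pass as the mean of its probe sets (0.32, limma adjusted p = 0.418). Dntt lost its call under all 3 scalings (limma adjusted p 0.0887 to 0.189) and without knockout-labelled array 2 (0.0639) or 3 (0.0700). The wild-type mean of Dntt on the log2 scale, 5.76, was under the filter, so it was tested because of its knockout-labelled signal and the size is not fixed. B cell markers, 10 of whose 12 listed genes are in this list, had a summed signal of 1198 to 1650 on the knockout-labelled arrays and 25742 to 38906 on the wild-type arrays. Of 10 tested 9 fell (90%) and 0 rose (limma, 0 also without adjustment). Cd79a, Vpreb1 and Rag1, counted in both lists, had knockout-labelled means on the log2 scale of 6.18, 5.41 and 4.16, under the filter of 6.62. They were tested because of their wild-type signal, so they could only be called lower.

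Genes that Bach proteins repress were higher in 7 of 11 tested cases and lower in 0 (limma, 0 also without adjustment), with a median of 1.07. That is 63.6% higher, where 27.9% of all genes tested were higher and 20.8% lower. After median centring 2 were lower. Prdm1, among the 7, is also counted with the lymphoid factors above. Its call was lost with quantile normalization, cyclic loess and median centring. Hmox1, a haem oxygenase, read 1790.3, 3532 and 4640 on the knockout-labelled arrays and 173, 172 and 248 on the wild-type arrays, 15.8-fold higher. Gclm, of glutathione synthesis, was 8.75-fold higher, Me1, malic enzyme, 3.43-fold, and Fth1, ferritin heavy chain, 3.50-fold (limma adjusted p 3.01e-05 to 0.000743). Erythroid cells, macrophages and hepatocytes use several of these genes.

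**Figure D3:**
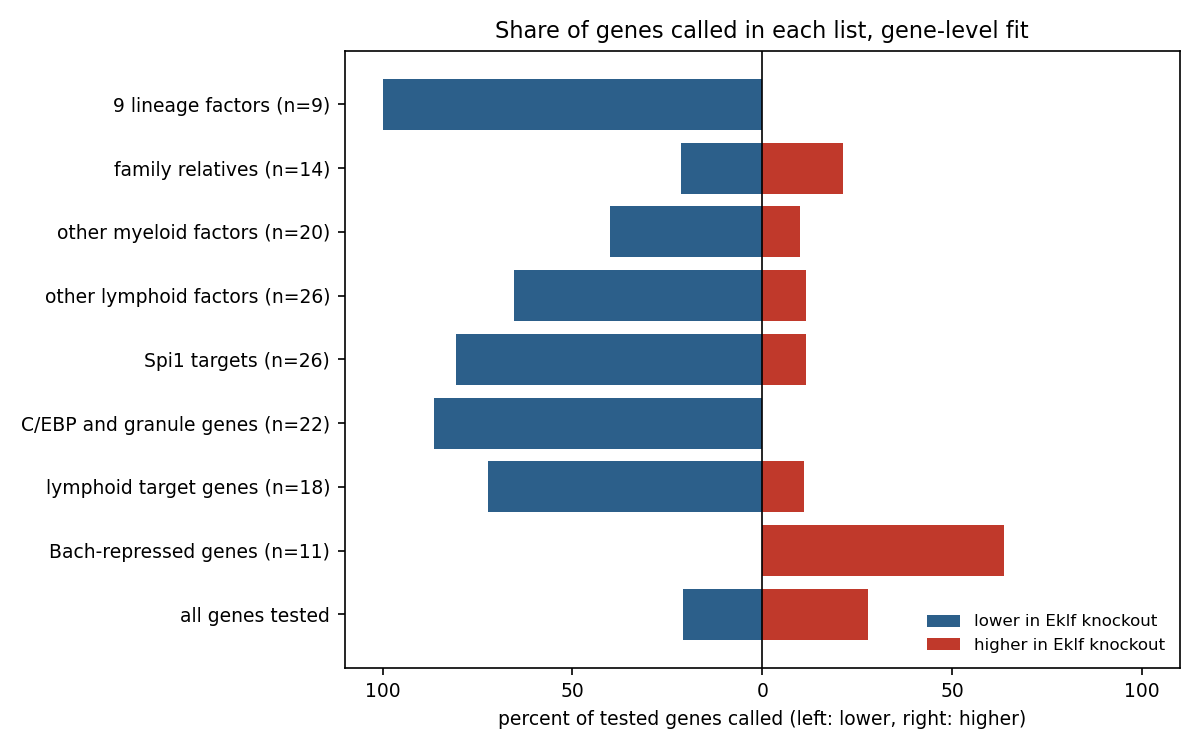
Percent of tested genes called lower (left, blue) and higher (right, red) on the knockout-labelled arrays, by gene list, with n the genes tested and the bottom bar all 12799 genes. The 9 measured lineage factors were all lower, though Ikzf3 could only be called lower. Targets of Spi1, of C/EBP and Gfi1, and of the lymphoid factors were mostly lower, and Bach-repressed genes were mostly higher.

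Summed markers of further cell types differed between the labels too. Summed hepatocyte markers were 128635 to 205332 on the knockout-labelled arrays and 9025 to 9887 on the wild-type arrays, with 15 of 15 tested higher. Megakaryocyte markers were higher in 9 of 9 tested cases (summed 34757 to 45021 against 8009 to 9324 on the wild-type arrays), and endothelial markers in 6 of 10 (5263 to 6360.5 against 2779 to 2897). Fgb among the hepatocyte markers, and Cdh5 and Tie1 among the endothelial ones, had wild-type means on the log2 scale under the filter. They could therefore only be called higher. Stem and progenitor markers were lower in 5 of 10 tested cases and higher in 3 (6540 to 7458 against 12988 to 14510), and of 5 tested T and NK cell markers 2 were lower and 1 higher (1838 to 2538 against 4189 to 7480). Over all genes tested 20.8% were lower and 27.9% higher. The shares that rose, 30% of stem and progenitor and 20% of T and NK cell markers, were near the latter or below it. No MAS5 signal of these lists was exactly 0. The part of these cell types in the differences of the 9 factors was not tested.

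Scaling moved the sizes but not the direction of the called factors. As deposited, the median log2 difference of all probe sets was 0.32, and the value became 0.01 with quantile normalization, 0.03 with cyclic loess and -0.49 with median centring. Under these, 13, 13 and 14 member probe sets fell and 0 rose, while over all probe sets 17.5%, 17.2% and 38.0% fell. Among member probe sets that were called as deposited, Gfi1 ranged from -3.43 to -2.43 over 18 alternatives, Spi1 from -2.69 to -1.65 and Cebpa from -2.14 to -1.10, and each was called in all 18. These 3 genes have 1 probe set each. For the genes with several, the mean of all probe sets gave smaller differences than the brightest one, -1.53 for Bach2, -1.22 for Id2, -0.94 for Cebpb and -0.55 for Ikzf1, which passed (limma adjusted p 0.000934 to 0.0443), and -0.85 for Ikzf3 and -0.50 for Tcf3, which did not.

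**Figure D4:**
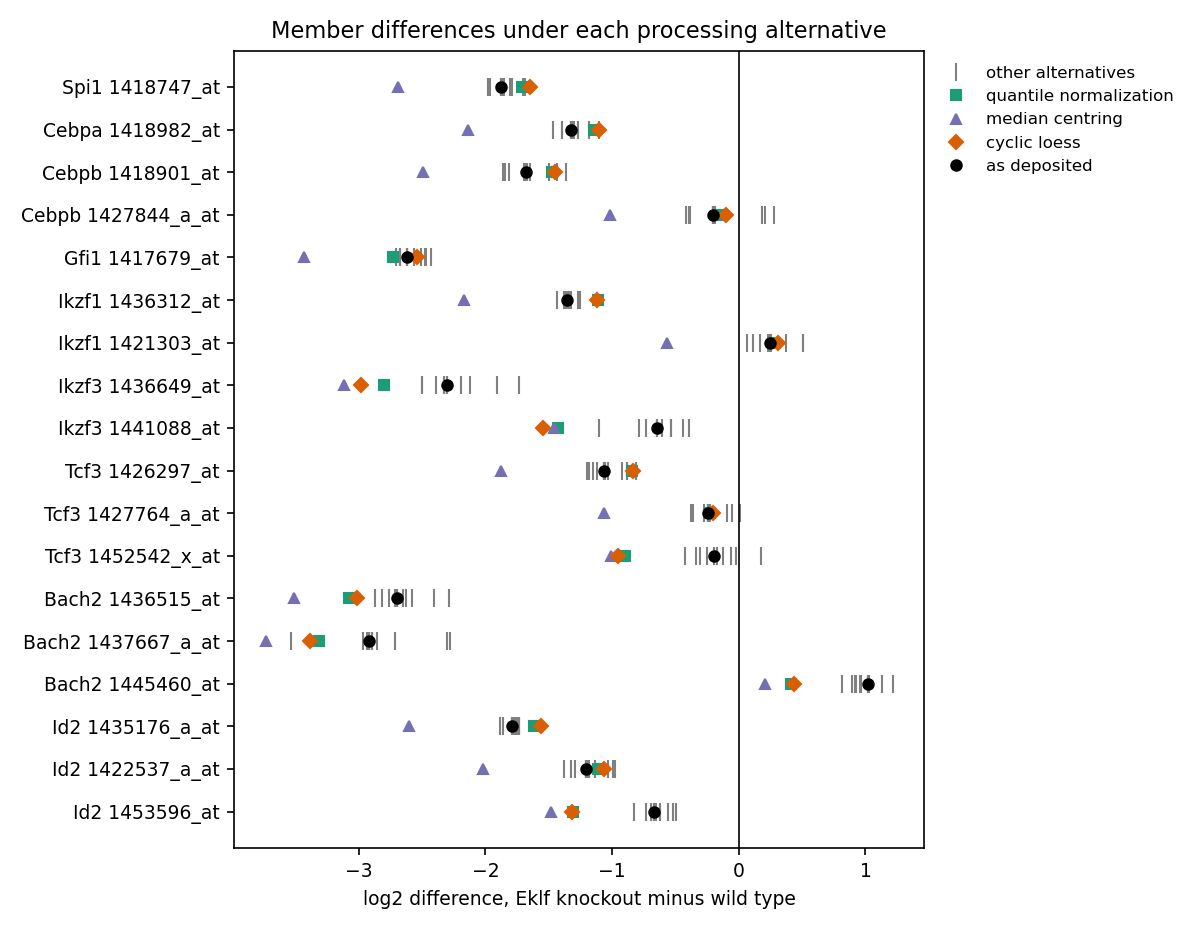
Log2 difference, Eklf knockout minus wild type, of each tested member probe set as deposited (black) and under the alternative scalings (coloured) and the other fits over probe sets (grey ticks). Median centring gives the lowest or nearly the lowest value for every probe set, and Bach2 1445460_at comes down to 0.21 under it.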

How the data were processed

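The deposited values are linear intensity values, 1 per probe set, which per the submitters' processing notes the authors made using MAS5 and Affymetrix Expression Console in versions not stated there. MAS5 corrects for background and brings each array to 1 trimmed mean, so each signal is relative to the other signals of its array. No detection calls entered the fits.

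Probe sets were named through the platform annotation and Entrez identifiers (34958 of 45101 with 1 gene, 932 with several, 9211 not listed). Signals under 1 were set to 1 and log2 was taken. Probe sets under the 40th percentile of mean log2 signal (6.62) and 64 control probe sets were left out. The test was limma 3.58.1 under R 4.3.3 (eBayes with a trend, two-sided), and p-values were adjusted by Benjamini-Hochberg over 27023 probe sets. Gene lists used the same fit over 12799 genes, each at its brightest probe set, where up to 4 genes of smallest p per list and every relative were named. Members and lists were chosen with earlier results of these data known. On simulated data with 27023 probe sets, the test recovered 38% of log2 changes of -2 and 50% of those of 2 but 6% of changes of -1 and 4% of those of 1 (50 probe sets each), with 2 false calls. Few probe sets were changed in that simulation, while 11838 passed in the deposited data, so its adjustment was stricter. These shares therefore do not measure how often the fit to the deposited data finds such changes. Figures were drawn with matplotlib 3.10.9.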

Additional observations from a re-analysis of the deposited data

How the results depend on the processing

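The signals of 6 arrays limit every value, and dim signals are read near background. Among them are Ikzf3 on the knockout-labelled arrays and its dimmer probe sets. Over 301 refits of member probe sets, 285 kept their side of the threshold, 8 lost a call, 8 gained one and in 0 did a called value change sign, while values that missed the threshold could fall on either side of 0. The number of member probe sets that fell was 10 to 14 and that of member genes 7 to 9. Member probe sets that rose numbered 1 as deposited, 2 with array weights (Ikzf1 1421303_at added, 0.50, limma adjusted p = 0.0493), 0 after quantile normalization, cyclic loess and median centring, and 0 to 1 with each array left out.

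Over all probe sets 7595 rose and 4243 fell as deposited (64.2% of calls higher). Higher calls numbered 4183 after quantile normalization (46.9%), 4267 after cyclic loess (47.8%), 2101 after median centring (17%, with 10273 lower) and 4268 with the filter at the 60th percentile. Over genes the higher calls, 3571 as deposited (57.3%), were 2248 (45.4%), 2292 (46.3%) and 1085 (15.0%, with 6133 lower) under those scalings and 2133 with the stricter filter, which tests fewer genes. With each array left out, 8357 to 11559 probe sets and 4875 to 6217 genes were called. Klf1 was -1.20 (limma adjusted p = 0.0225) after median centring, and -0.68 to -0.01 with each array left out. Family relatives that fell, 3 as deposited, numbered 9 with median centring, 7 with array weights and 5 with the replicate number as a block, and other myeloid factors that fell, 8 as deposited, numbered 15 with median centring. After median centring Cebpg was -0.69 and Mpo -0.80. Quantile normalization gave -0.76 for S100a8, -0.60 for S100a9 and -0.70 for Mpo. The cause of these shifts was not tested, other than the smaller number of genes.

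Replicate numbers are shared by both genotypes, but nothing in the labels ties them to a litter or day. Deviations from the group means correlated at 0.04, 0.05 and 0.08 within same-numbered pairs, and each array correlated best with its own number. With the replicate number as a block, 11829 probe sets were called, against 11838 without, and 11 member probe sets fell and 1 rose; Klf1 was -0.38 (limma adjusted p = 0.265). Among the relatives, Ddit3 (2.08, limma adjusted p = 0.00533), Id1 (-0.66, 0.0313) and Tcf12 (-0.50, 0.0329) passed with the block and not without it.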
